A study of Homo sapiens with 6 samples.

Results

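The 10 genes described here encode heat shock proteins and chaperonins in SEM, an established cell line of human B-cell acute lymphoblastic leukaemia (B-ALL) with the KMT2A::AFF1 fusion. They were taken by symbol from the 62703 gene IDs of the count files and comprise 3 genes whose proteins work in mitochondria (HSPD1, HSPE1 and HSPA9) and 7 whose proteins work in the cytosol and nucleus (HSPA8, HSPA1B, HSPH1, HSP90AA1, HSP90AB1, DNAJA1 and DNAJB1). Total RNA was sequenced in 3 knock-down (KD) libraries, made after transfection with a pair of Dicer-substrate siRNAs against the back-splice junction of AK_8_2, a circular RNA of the fusion gene, and in 3 negative control (NC) libraries, made after transfection with a commercial non-targeting Dicer-substrate siRNA. Both groups are the same cell line, and both received a reverse lipid transfection followed by a forward transfection 24 h later, so no library comes from untransfected cells. A gene count does not separate a circular junction from linear RNA, so these values do not measure how far AK_8_2 was silenced. Per-library totals were 14750579 to 26694160 gene counts, and the 10 genes held 0.743% to 0.876% of them.

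Heat shock proteins are chaperones that bind unfolded or partly folded proteins. In the cytosol, J-domain proteins hand clients to HSP70 and stimulate its ATPase, HSP110 proteins act as exchange factors that reset HSP70, and HSP90 completes the maturation of kinases and receptors. In the mitochondrial matrix, the HSP70 encoded by HSPA9 draws in imported chains, which the HSP60 barrel (HSPD1) folds under a lid of HSP10 (HSPE1). Many of these genes are induced together by heat shock factor, which binds repeats of the unit GAA and its complement TTC, the heat shock element.

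The libraries that share replicate number 1 stood apart: 50.03% (KD) and 48.6% (NC) of their records fell outside annotated features, beside 11.3% to 17.3% elsewhere. In KD replicate 3, multiply aligned records made up 31.5% and mitochondrial ribosomal RNA 6.79% of gene counts, beside at most 17.3% and 1.34% in the other 5 libraries. Markers of B-cell precursors were present in all libraries, among them PAX5 at 850.2 to 1217 CPM in KD and 915.3 to 1258 CPM in NC, and CD79A at 144.4 to 170.0 CPM in KD and 130.2 to 154.9 CPM in NC. The lowest of those listed were IGLL1, at 27.1 to 37.0 CPM in KD and 22.8 to 30.6 CPM in NC, and VPREB1. VPREB1 had 10.25 to 12.4 CPM in KD and 9.95 to 14.5 CPM in NC. CPM is the per-million scaling of a count by its library's total over the genes tested, here adjusted by TMM factors. The T-cell markers CD3E, CD3D and CD2 summed to 0.0786 to 3.72 CPM in KD and 0.131 to 5.28 CPM in NC, and the myeloid markers CD14, LYZ and MPO to 5.50 to 11.5 CPM in KD and 5.57 to 9.89 CPM in NC, with the highest sums in the replicate 1 libraries.

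The start regions of the genes were read from RefSeq (GRCh38.p14) as windows from 250 bases before to 50 bases after each listed transcript start, and all 10 genes had at least 1 window, 16 in all. The motifs searched were the 2-unit forms GAANNTTC and TTCNNGAA, each its own reverse complement, and the 3-unit forms GAANNTTCNNGAA and TTCNNGAANNTTC on both strands, which contain the 2-unit forms. At least 1 of the 2-unit forms lay in a window of 8 of the 10 genes, against 16.2% of the 27305 genes with windows, and a 3-unit form in windows of 5, against 0.608%. The members had more windows per gene, 16 for 10 genes beside 35116 for 27305, so these shares rest on unequal search space. For HSPD1, HSP90AA1, HSP90AB1 and DNAJB1 the forms lay only outside the outermost window. HSPE1 and HSPH1 held neither form in these windows, which says only that these letters are not there. HSPD1 and HSPE1 lie head to head on chromosome 2, and the HSPE1 start at 197500379 and the outer HSPD1 start at 197500274 are 105 bases apart. The 18-base run of 3 overlapping 2-unit forms in the inner HSPD1 window, at 197500068 to 197500085, ends 43 bases before the HSPE1 window begins, so it lies between the HSPE1 start and the inner HSPD1 start. The windows below are shown because they carry the shared HSPD1 and HSPE1 region, the heat-inducible HSPA1B and DNAJB1, and HSPA8, the gene with the most counts among the HSP70 members; capitals mark the 2-unit forms, including those inside a 3-unit form.
HSPD1, inner start, chr2:197499791-197500090, minus strand: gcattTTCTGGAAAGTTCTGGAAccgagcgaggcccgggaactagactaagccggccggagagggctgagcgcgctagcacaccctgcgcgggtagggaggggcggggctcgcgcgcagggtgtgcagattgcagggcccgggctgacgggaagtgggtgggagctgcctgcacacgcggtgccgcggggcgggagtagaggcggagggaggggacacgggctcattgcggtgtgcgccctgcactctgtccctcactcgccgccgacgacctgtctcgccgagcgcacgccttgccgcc
HSPE1, chr2:197500129-197500428, plus strand: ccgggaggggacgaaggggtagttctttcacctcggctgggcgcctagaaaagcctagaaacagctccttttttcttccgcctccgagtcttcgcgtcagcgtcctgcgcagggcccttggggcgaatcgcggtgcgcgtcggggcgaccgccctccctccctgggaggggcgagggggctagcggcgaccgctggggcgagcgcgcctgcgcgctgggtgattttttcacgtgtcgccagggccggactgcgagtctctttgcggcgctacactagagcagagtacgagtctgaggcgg
HSPA8, chr11:123062087-123062386, minus strand: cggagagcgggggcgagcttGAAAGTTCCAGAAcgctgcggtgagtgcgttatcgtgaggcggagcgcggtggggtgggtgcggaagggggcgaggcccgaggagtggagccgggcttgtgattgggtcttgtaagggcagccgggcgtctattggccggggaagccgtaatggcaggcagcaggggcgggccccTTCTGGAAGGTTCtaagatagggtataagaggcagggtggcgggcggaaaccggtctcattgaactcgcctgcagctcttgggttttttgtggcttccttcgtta
HSPA1B, chr6:31827488-31827787, plus strand: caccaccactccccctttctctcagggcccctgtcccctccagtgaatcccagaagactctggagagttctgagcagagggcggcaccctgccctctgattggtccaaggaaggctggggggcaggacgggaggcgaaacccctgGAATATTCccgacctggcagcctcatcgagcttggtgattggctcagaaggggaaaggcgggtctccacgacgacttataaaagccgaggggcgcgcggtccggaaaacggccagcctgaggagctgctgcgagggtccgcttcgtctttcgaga
DNAJB1, chr19:14518348-14518647, minus strand: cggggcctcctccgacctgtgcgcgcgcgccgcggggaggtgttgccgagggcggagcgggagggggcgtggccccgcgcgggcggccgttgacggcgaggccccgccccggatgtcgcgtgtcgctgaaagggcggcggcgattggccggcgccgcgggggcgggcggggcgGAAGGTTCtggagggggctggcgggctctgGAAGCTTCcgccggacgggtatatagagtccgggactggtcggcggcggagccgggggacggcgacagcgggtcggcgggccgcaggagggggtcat
The HSPA8 window holds a pair of 3-unit forms, starting 230 and 55 bases before the transcript start. The HSPA1B window holds a 2-unit form alone, starting 105 bases before the start, and the DNAJB1 window a pair of them, starting 77 and 47 bases before it. CCAAT, searched on both strands, lay in windows of HSPA8, HSPA1B, HSP90AA1 and DNAJB1, and in 39.7% of all genes with windows.

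Compared per kilobase of annotated exon, the median levels of the 10 genes in SEM ran from 6.77 to 649 CPM per kb. The HSP90 genes were the most abundant, HSP90AB1 with a median over the 6 libraries of 649 CPM per kb (range 494 to 697) and HSP90AA1 with 490 CPM per kb (447 to 512). HSPA8, the constitutive cytosolic HSP70, followed at 356 CPM per kb (227 to 383), and HSPD1 at 236 (196 to 256). Below them came DNAJA1 at 125 CPM per kb (97.1 to 137), HSPE1 at 76.5 (58.3 to 95.6) and HSPA9 at 66.3 (55.6 to 71.4). The exchange factor HSPH1 stood at 22.9 CPM per kb (15.7 to 24.4), DNAJB1 at 18.6 (13.9 to 20.9) and HSPA1B, the stress-induced HSP70, at 6.77 (4.21 to 9.22). The ranges of HSP90AB1 and HSP90AA1, of HSPA8 and HSPD1, of HSPE1 and HSPA9, and of HSPH1 and DNAJB1 overlapped, while the ranges of the other neighbours did not. Within single libraries the first of each pair was the higher in 5, 4, 5 and 6 of the 6 libraries, in that order, so HSPH1 stood above DNAJB1 in each library and the other 3 pairs changed places in at least 1. The place of HSPA1B is uncertain, because 73.5% of the 50-base words of its transcript also occur in other genes and reads from them may not be counted for it. Such words made up at least 43.5% of the HSPE1 transcript, 25.0% of HSPD1, 21.4% of HSP90AA1, 18.8% of HSP90AB1 and 15.4% of HSPA8. Their places carry the same limit, and the shares of the remaining members were lower. With the length of the longest protein-coding transcript in place of all exons, HSP90AA1 (733 CPM per kb) and HSP90AB1 (724) exchanged places, as did HSPE1 (159) and DNAJA1 (143). The order of the other medians stayed, but HSPA8 came close to the HSP90 genes, at 700 CPM per kb (447 to 754). Its range then overlapped those of HSP90AA1 (668 to 766) and HSP90AB1 (550 to 777), so the lead of the HSP90 genes over HSPA8 depends on the length used.

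No member passed the test between KD and NC, and the estimate furthest from 0, that of HSPE1, was a 1.23-fold higher level in KD. In edgeR's quasi-likelihood test over 16929 genes 0 members were called (0% of all genes tested), with 0 members at an unadjusted p under 0.05, and 0 were called by DESeq2 or limma-voom. In the paired fit, which adds the replicate number as a block, again 0 members were called, where 0.171% of all genes tested were, and 2 members had an unadjusted p under 0.05, HSPE1 and HSP90AA1, both with a positive estimate, as in 2.9% of all genes. The estimate was above 0 for 9 of the 10 members in both fits, against 48.6% of all genes without the block and 48% with it. Within replicate numbers 1, 2 and 3, the KD library was the higher for 7, 4 and 7 of the 10 members. The median log2 fold change of the members was 0.06 without and 0.05 with the block, beside -0.0036 and -0.0051 over all genes. The 95% interval lay inside a 1.5-fold change in either direction for 7 members without the block (50.7% of all genes) and for 10 with it (66.6% of all genes). Leaving out the replicate 1 libraries, which stand apart, kept the sign of the paired estimate in 8 members, and that of HSPA1B became -0.07 and that of DNAJB1 -0.08. In bulk RNA, fewer cells that express a gene and less of its RNA per cell cannot be told apart.

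**Figure D1:**
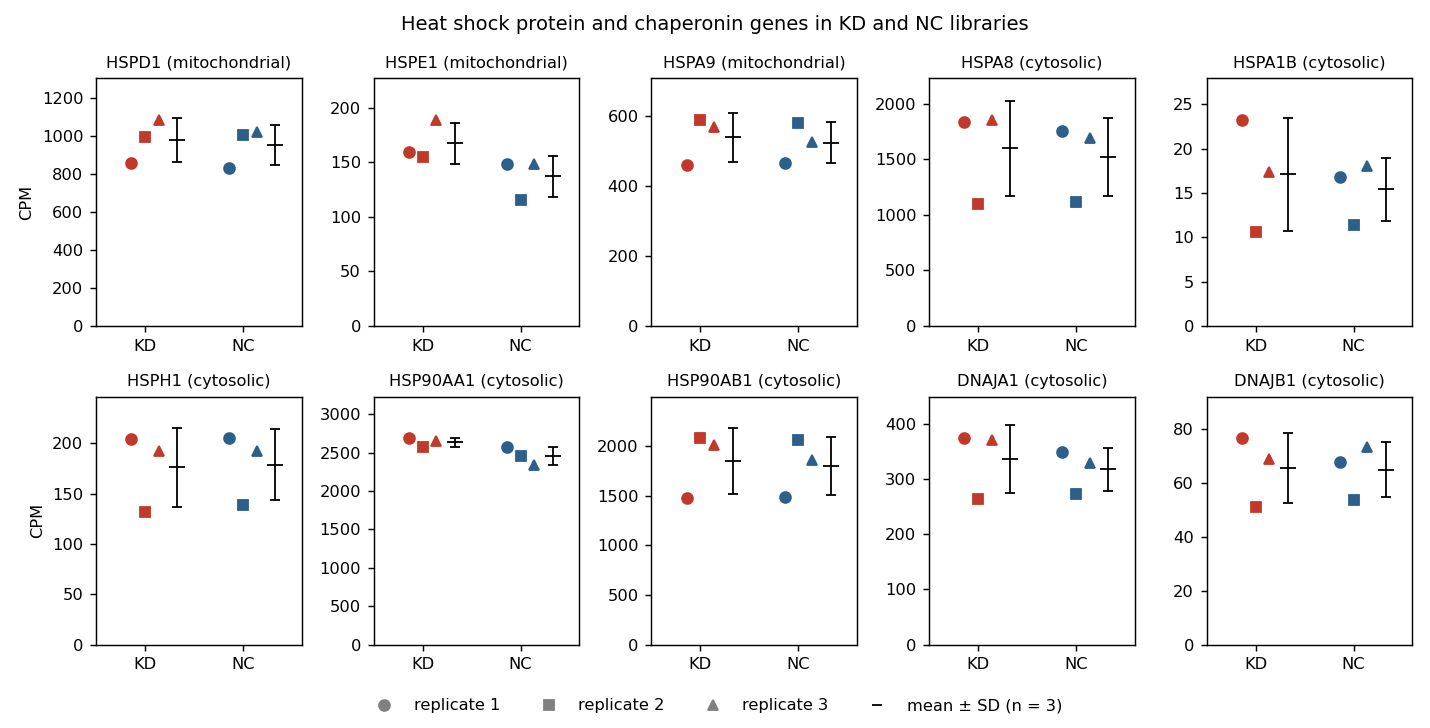
CPM of each gene in the 3 KD (red) and 3 NC (blue) libraries on linear axes from 0, with the marker shape giving the replicate number and the bar the mean ± SD (n = 3). Only HSPE1 has all KD libraries (154.6 to 188.9 CPM) above all NC libraries (115.4 to 148.0 CPM).

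Among the mitochondrial genes, HSPE1 had the largest difference of the 10. HSPE1 (ENSG00000115541.11, chromosome 2, 197499994 to 197503457, plus strand, GRCh38) had 158.9, 154.6 and 188.9 CPM in KD replicates 1, 2 and 3, against 148.0, 115.4 and 147.9 CPM in NC replicates 1, 2 and 3. All 3 KD libraries lay above all 3 NC libraries, as they did for 1.67% of the genes tested (0 members had the opposite order, seen in 1.77%), and NC replicate 2 was the lowest of the 6. The KD mean was 168 ± 18.7 CPM and the NC mean 137 ± 18.8 CPM (SD, n = 3 each). The log2 fold change was 0.29 without the block (SE 0.14, 95% interval -0.04 to 0.62, edgeR quasi-likelihood adjusted p 1.00) and 0.29 with it (SE 0.06, interval 0.17 to 0.42, edgeR adjusted p 0.0821), so it did not pass in either fit. HSPE1 ranked 31 of 16929 genes by paired p. Within replicate numbers 1, 2 and 3 the log2 differences were 0.10, 0.42 and 0.35. Without the pair numbered 3 the paired edgeR adjusted p was 0.0189, in a fit that tested 29966 genes, and without pair 1 or pair 2 it was 0.186 or 0.182.

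The counts of HSPE1 rest on part of the gene. In GENCODE 29, 23.9% of its exon bases also lie under exons of other genes. These are HSPD1 on the other strand and the read-through gene HSPE1-MOB4 on the same strand. HSPE1-MOB4 itself had 0 counts in all 6 libraries, but its exons overlap those of HSPE1, so this does not show that it is absent. Of the 50-base words of its 950-base transcript, 43.5% occur in transcripts of other genes, with HSPE1-MOB4 left out of this share. Of all its words 25.8% occur in that of HSPD1, which overlaps it on the other strand, and others in the copies HSPE1P2 and HSPE1P3. The 26 annotated copies named as HSPE1 pseudogenes summed to 1.69% to 5.63% of the HSPE1 count, and the 1 that was tested, HSPE1P3, had a paired log2 fold change of 0.15 (edgeR adjusted p 1.00). HSPE1 is also the member with the fewest annotated exon bases, 1977. The 970 tested protein-coding genes of up to that length had a median paired log2 fold change of 0.05 with 65.6% above 0, beside -0.0010 and 49.5% for the 11272 longer ones. The part of this in the HSPE1 value was not tested.

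HSPD1 (ENSG00000144381.18, chromosome 2, 197486581 to 197516737, minus strand), the HSP60 barrel that shares the start region with HSPE1, had 859, 994 and 1087 CPM in KD replicates 1, 2 and 3, against 832, 1007 and 1024 CPM in NC. The groups overlapped, and within each group replicate 1 was lowest. Its log2 fold change was 0.04 (SE 0.14, interval -0.30 to 0.38) without the block and 0.04 (SE 0.04, interval -0.05 to 0.13) with it. There were 5.40, 6.43 and 5.75 HSPD1 counts per HSPE1 count in KD replicates 1, 2 and 3, against 5.62, 8.73 and 6.92 in NC. The ratio was lower in KD within each replicate number, and the groups overlapped.

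HSPA9 (ENSG00000113013.16, chromosome 5, 138553756 to 138575724, minus strand), the matrix HSP70, had 459, 589 and 568 CPM in KD replicates 1, 2 and 3, against 464, 580 and 526 CPM in NC. The groups overlapped and replicate 1 was again lowest in both. The log2 fold change was 0.04 in both fits, with a paired 95% interval from -0.05 to 0.13.

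**Figure D2:**
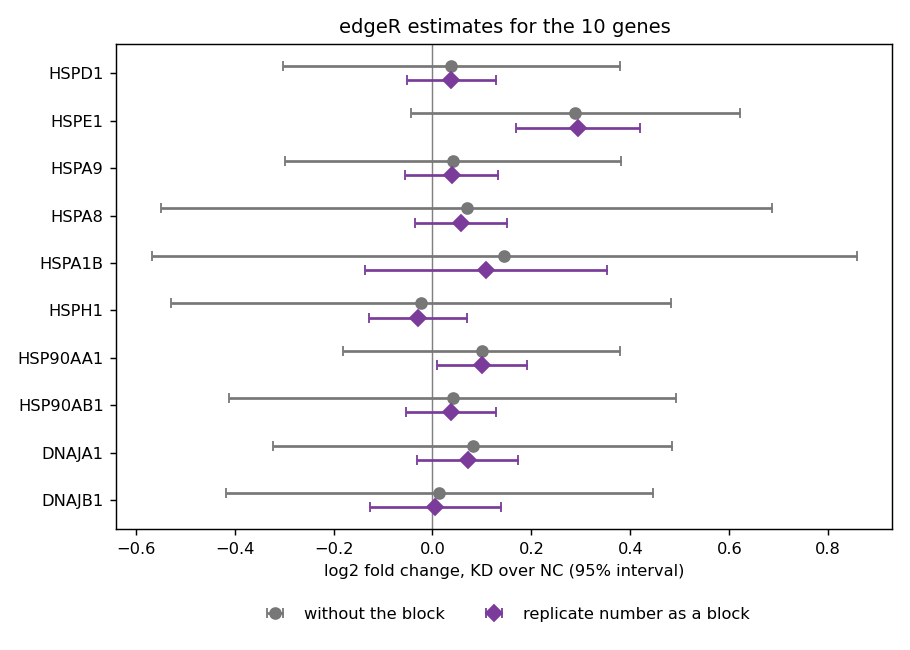
log2 fold change of KD over NC with its 95% interval for each gene, from edgeR without the block (grey circles) and with the replicate number as a block (purple diamonds). The paired intervals of HSPE1 (0.17 to 0.42) and HSP90AA1 (0.01 to 0.19) lie above 0, and neither gene passed after adjustment over all genes.

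Among the cytosolic HSP70 genes, HSPA8 (ENSG00000109971.14, chromosome 11, 123057489 to 123063230, minus strand) had 1837, 1102 and 1858 CPM in KD replicates 1, 2 and 3, against 1759, 1120 and 1691 CPM in NC. Both replicate 2 libraries lay far below the other 4, and the groups overlapped. The log2 fold change was 0.07 (interval -0.55 to 0.69) without the block and 0.06 (interval -0.03 to 0.15) with it. HSPA1B (ENSG00000204388.7, chromosome 6, 31827735 to 31830255, plus strand), a heat-induced HSP70, had 23.3, 10.6 and 17.4 CPM in KD replicates 1, 2 and 3, against 16.8, 11.4 and 18.0 CPM in NC. Its groups overlapped, with a difference of 0.47 on the log2 scale within replicate 1 and of -0.10 and -0.05 within replicates 2 and 3. Its paired log2 fold change of 0.11 had the widest interval of the members, -0.14 to 0.35, on 262 to 413 counts per library.

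HSPA1B counts are uncertain for a pair of reasons. HSPA1A is a near-identical neighbour that holds 71.4% of the 50-base words of the HSPA1B transcript, and 36.5% of the HSPA1B exon bases lie under AL671762.1 on the same strand, the largest overlap of any member. HSPA1A had 346, 166 and 241 counts in KD replicates 1, 2 and 3, against 333, 131 and 324 in NC, and its paired log2 fold change was -0.04. Like HSPA1B, it was lowest in the replicate 2 libraries of both groups.

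HSPH1 (ENSG00000120694.20, chromosome 13, 31134974 to 31162388, minus strand), the HSP110 exchange factor, had 204, 132 and 192 CPM in KD replicates 1, 2 and 3, against 205, 139 and 193 CPM in NC. It was the member with an estimate below 0, a log2 fold change of -0.02 without and -0.03 with the block (paired interval -0.13 to 0.07), and it was lower in KD within all 3 replicate numbers, as were 12.6% of the genes tested. Those differences were -0.0044, -0.08 and -0.0060. DNAJA1 (ENSG00000086061.16, chromosome 9, 33025211 to 33039907, plus strand), a J-domain partner of HSP70, had 375, 265 and 371 CPM in KD replicates 1, 2 and 3, against 350, 274 and 331 CPM in NC. Its paired log2 fold change was 0.07 (interval -0.03 to 0.17). DNAJB1 (ENSG00000132002.9, chromosome 19, 14514770 to 14529770, minus strand), the heat-induced J-domain protein of the HSP40 family, had 76.6, 51.0 and 69.0 CPM in KD replicates 1, 2 and 3, against 67.6, 53.6 and 73.4 CPM in NC, with a paired log2 fold change of 0.0051 (interval -0.13 to 0.14). For these 3 genes the groups overlapped and both replicate 2 libraries were the lowest.

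The HSP90 genes differed from each other in how they varied. HSP90AA1 (ENSG00000080824.19, chromosome 14, 102080738 to 102139699, minus strand), the stress-responsive HSP90, was the member with the smallest ratio of highest to lowest library (1.15), with 2689, 2569 and 2647 CPM in KD replicates 1, 2 and 3, against 2577, 2459 and 2343 CPM in NC. KD replicate 2 lay just below NC replicate 1, so the groups overlapped, while KD was higher within all 3 replicate numbers by 0.06, 0.06 and 0.18 on the log2 scale, as it was for 13.1% of the genes tested. The paired log2 fold change was 0.10 (SE 0.04, interval 0.01 to 0.19, edgeR quasi-likelihood adjusted p 0.966), and it did not pass. HSP90AB1 (ENSG00000096384.20, chromosome 6, 44246166 to 44253888, plus strand), the constitutive HSP90, had 1471, 2077 and 2009 CPM in KD replicates 1, 2 and 3, against 1482, 2058 and 1862 CPM in NC. Its groups overlapped, both replicate 1 libraries were the lowest, and its paired log2 fold change was 0.04 (interval -0.05 to 0.13). There were 1.83, 1.24 and 1.32 HSP90AA1 counts per HSP90AB1 count in KD replicates 1, 2 and 3, against 1.74, 1.195 and 1.26 in NC, so the share of HSP90AA1 was highest in replicate 1 of both groups.

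Set against the cytosolic members, the mitochondrial members did not separate KD from NC. The mean log2 CPM of HSPD1, HSPE1 and HSPA9 minus that of the 7 cytosolic genes was 0.09, 0.72 and 0.42 in KD replicates 1, 2 and 3, against 0.17, 0.54 and 0.30 in NC. The groups overlapped, and the replicate 2 libraries were the highest in both. The KD mean was 0.41 ± 0.31 and the NC mean 0.34 ± 0.19 (SD, n = 3 each), with a difference of 0.07, which was smaller than either SD. Those SDs also hold the spread between replicate numbers. The difference was -0.08, 0.18 and 0.12 within replicate numbers 1, 2 and 3, with an SD of 0.13. Without HSPE1 the difference was -0.01. Leaving out KD replicate 2 or NC replicate 1 made it -0.08 or -0.01, and leaving out any other single library kept it above 0. Such an omission leaves the replicate numbers unequal between the groups. The mean scores of numbers 1, 2 and 3 were 0.13, 0.63 and 0.36, so these values hold that inequality. No test was made of this score because the genes were chosen with earlier results known.

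**Figure D3:**
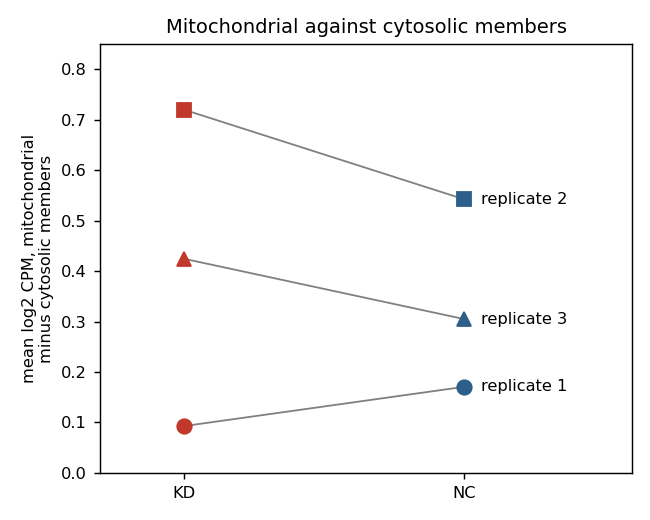
Mean log2 CPM of the 3 mitochondrial genes minus that of the 7 cytosolic genes in each library, with lines joining libraries of the same replicate number. The values run from 0.09 to 0.72 in KD and from 0.17 to 0.54 in NC, and replicate 2 is highest in both groups.

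Levels of the members also differed between replicate numbers. For 8 of the 10, all except HSPE1 and HSP90AA1, the largest KD minus NC difference within a number was smaller than the range of the means of the 3 numbers, a share near the 70.2% of all genes tested for which this was so. In 5 members, HSPA8, HSPA1B, HSPH1, DNAJA1 and DNAJB1, both replicate 2 libraries lay below the other 4, an arrangement seen in 11.7% of all genes tested. All 5 are cytosolic, and they encode HSP70, HSP110 and J-domain proteins. Outside the members, both replicate 2 libraries were the lowest in 4 of 7 other HSP70 and HSP110 genes. The same held in 3 of 11 other J-domain genes, of which 4 had both replicate 1 libraries lowest. Averaged over KD and NC, replicate 2 was lower than replicate 1 by 0.69, 0.84, 0.60, 0.43 and 0.46 and lower than replicate 3 by 0.67, 0.68, 0.51, 0.38 and 0.44 on the log2 scale for these genes in that order. The median size of these differences over all genes was 0.35 and 0.14. The mitochondrial HSPE1 was also lowest in replicate 2 within each group. In the same averages its replicate 2 was lower than replicate 1 by 0.20 and than replicate 3 by 0.32. It missed the arrangement because KD replicate 2 lay above NC replicates 1 and 3. In 3 members, HSPD1, HSPA9 and HSP90AB1, both replicate 1 libraries lay below the other 4, as in 29.6% of all genes tested. These arrangements were noticed after the values were seen and are given without a test.

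The replicate numbers also went with other differences between libraries, beside the share outside annotated features in replicate 1. Records assigned to genes were 60.2% (KD) and 59.1% (NC) in the replicate 2 libraries, and 33.5% to 53.3% elsewhere. The part of these differences in the levels of the members was not tested, and the labels do not say whether a number marks a culture, a day or a library batch.

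**Figure D4:**
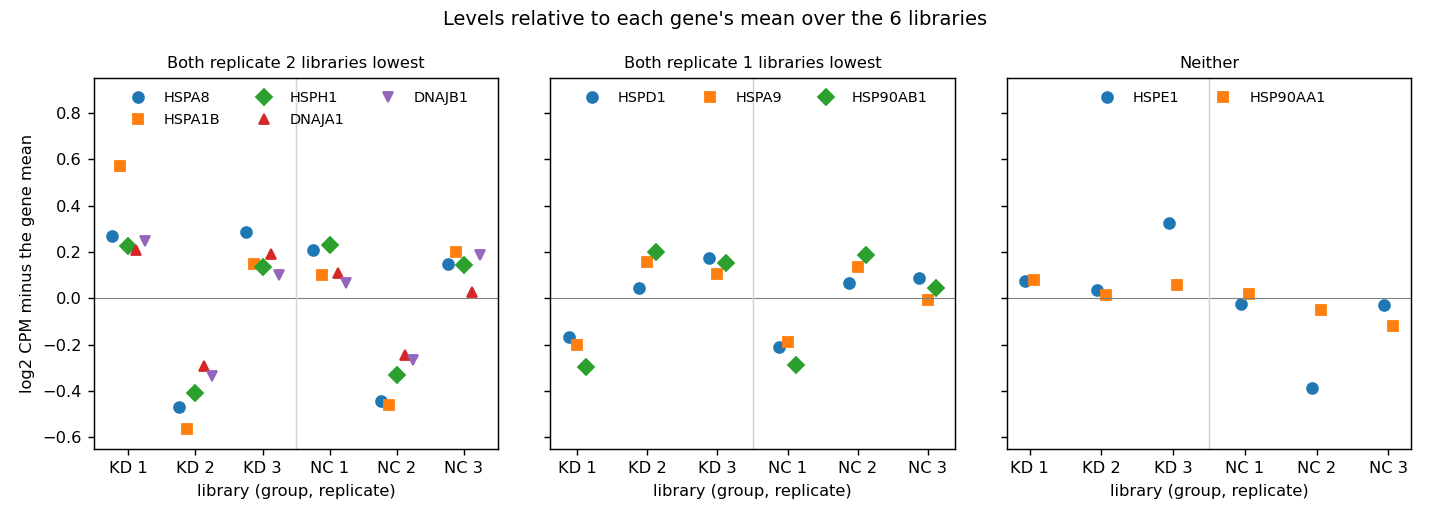
log2 CPM of each gene minus its mean over the 6 libraries, with KD replicates 1 to 3 left of the grey line and NC replicates 1 to 3 right of it, in 3 panels by which libraries are lowest. In HSPA8, HSPA1B, HSPH1, DNAJA1 and DNAJB1 both replicate 2 libraries lie below all others. In HSPD1, HSPA9 and HSP90AB1 both replicate 1 libraries do, and HSPE1 and HSP90AA1 have neither arrangement. HSPE1 is lowest in replicate 2 within each group, but its KD replicate 2 lies above NC replicates 1 and 3.

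Likeness of pattern was measured as the root mean square distance between centred log2 CPM over the 6 libraries, among 9214 genes with a symbol and a mean of at least 10 CPM. The genes most like HSPA8 were CCDC15 (distance 0.0814), the member HSPH1 (0.0828) and RASGRP1, an exchange factor of RAS (0.0872). The other members with both replicate 2 libraries lowest stood at positions 24 (DNAJB1), 26 (DNAJA1) and 40 (HSPA1B), with HSPE1 at 623 and HSP90AB1 at 7852. For HSPE1 the nearest genes were TMEM258, a subunit of the oligosaccharyltransferase, MRPL32, a protein of the mitochondrial ribosome, and RPS7P1, a ribosomal protein pseudogene, each at a distance of 0.08, and its partner HSPD1 stood at 3249 (distance 0.24). The distances share the same 6 libraries and the replicate 1 libraries that stand apart.

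Related genes, in 11 lists with 95 tested genes, gave 0 calls in edgeR without the block (0 at an unadjusted p under 0.05) and 0 with it (8 at an unadjusted p under 0.05, smallest edgeR adjusted p 0.607). Besides genes of the chaperone network, the lists held mitochondrial proteases, intronic snoRNAs and pseudogene copies, of which 10 copies were tested. Over all 16929 genes 52 without and 841 with the block had an unadjusted p under 0.05. The paired estimate of the related genes was above 0 in 63 of the 95, with a median of 0.02, beside 48% of all genes. The TRiC chaperonin, the cytosolic barrel that folds actin and tubulin, had 8 of 8 subunits tested, 7 with an estimate above 0 and a median paired log2 fold change of 0.03, with CCT5 at 0.07 and CCT4 at 0.06. Both replicate 1 libraries were the lowest in 7 of the 8 subunits, and replicate 2 in 0. Prefoldin, which delivers actin and tubulin chains to TRiC, had a median of 0.10 over 6 subunits that ranged from -0.33 to 0.13, with PFDN2 at 0.13, PFDN1 at 0.12 and PFDN4 at 0.11. Of its subunits 4 had an estimate above 0.

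Mitochondrial chaperones and proteases had a median paired log2 fold change of 0.02 over 16 tested of 17, 11 of them above 0. SPG7, a subunit of an inner-membrane protease, stood at -0.16 (interval -0.27 to -0.05, edgeR quasi-likelihood adjusted p 0.607) and HTRA2, a protease of the intermembrane space, at 0.18 (interval 0.02 to 0.33, edgeR adjusted p 0.928), both uncalled. Both replicate 1 libraries were the lowest in 12 of the 16, and replicate 2 in 0. Of the other HSP70 and HSP110 genes 7 of 8 were tested, with a median of -0.02, and HSPA2 stood at -0.15 and HSPA1L at 0.56 with an interval from -0.27 to 1.38. Replicate 2 was lowest in 4 of the 7, HSPA1A, HSPA1L, HSPA2 and HSPA4L.

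Cochaperones of HSP70 and HSP90 had a median of 0.01 over 20 tested genes, 13 above 0, with FKBP4, an immunophilin of HSP90, at -0.23, HSPBP1 at -0.13, BAG2 at -0.09 and CACYBP at 0.07. Both replicate 1 libraries were the lowest in 11 of the 20. Both replicate 2 libraries were the lowest in 5 of the 20, STIP1, BAG2, AHSA1, PPID and CHORDC1. These include the HSP70 to HSP90 adaptor STIP1 and the HSP90 ATPase activator AHSA1. These, and the HSP70 genes listed with replicate 2 lowest, are named after their values were seen. The other J-domain genes had a median of 0.02 over 11 tested of 12, with DNAJC8 and DNAJC21 each at 0.12. Endoplasmic reticulum chaperones had a median of 0.03 over 9 genes, with CALR, the calcium-binding lectin calreticulin, at 0.09, DNAJB11 at 0.08 and HSPA5, the HSP70 of that compartment, at 0.06. None of these named genes passed in either fit.

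The heat shock factor list had a median of -0.01 over 4 genes, with HSBP1, a binding protein of the factor, at 0.14 and HSF2 at -0.06. The list of small heat shock proteins, which also held the collagen chaperone SERPINH1, had 3 tested genes of 6. Its median was 0.11 in the paired fit and -0.04, the value of SERPINH1, without the block. In the paired fit HSPB1 stood at 0.11 (interval 0.01 to 0.22, edgeR adjusted p 0.982) and SERPINH1 at -0.04. Of the box C/D snoRNAs in the introns of HSPA8 and HSPA9 only SNORD14E was tested, at 0.07 (interval -0.36 to 0.51). SNORD14C and SNORD14D had 0 counts, and both overlap annotated HSPA8 exons. The list of overlapping or near-identical genes held 11 tested genes of 72, with a median of -0.11, HSPA9P1 at -0.64 (interval -1.69 to 0.41) and HSPA8P8 at -0.35 (interval -1.31 to 0.61). The annotated pseudogene copies of HSPD1, HSPA9, HSPA8 and DNAJA1 summed to at most 0.979%, 0.295%, 0.516% and 0.391% of the count of their parent gene, and those of DNAJB1 to at most 1.75%. Copies of the HSP90 genes, such as HSP90AA2P and HSP90AB3P, are named by another pattern and were not summed.

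**Figure D5:**
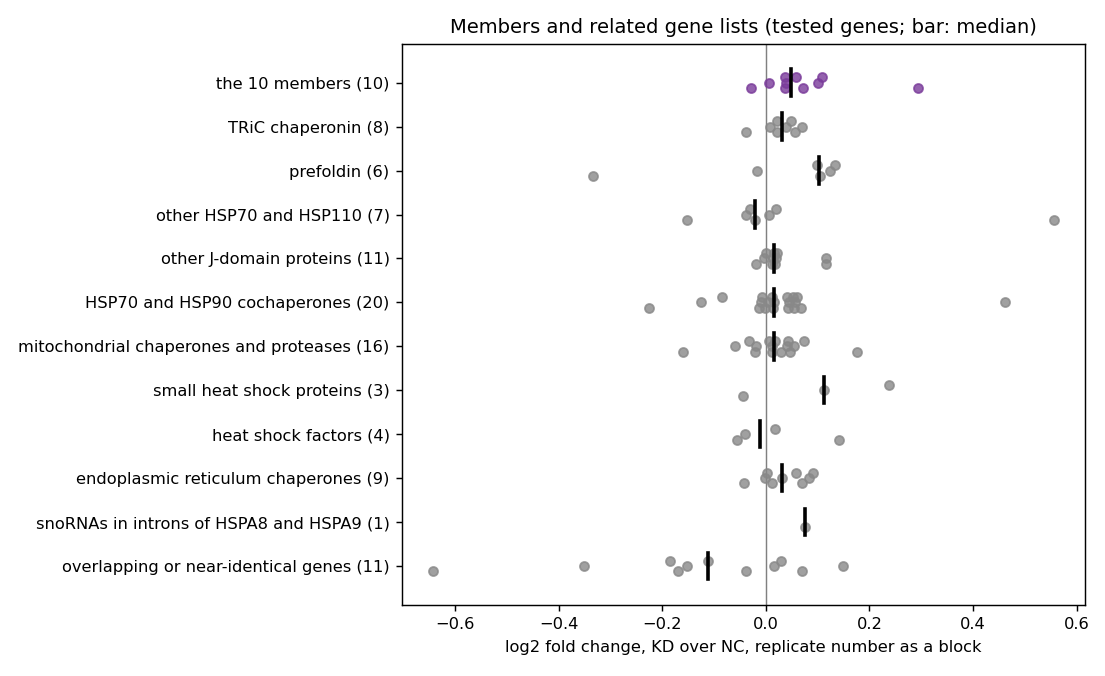
log2 fold change of KD over NC with the replicate number as a block for the 10 genes (purple) and for the tested genes of 11 related lists (grey, number in brackets), with a bar at each median. The medians lie between -0.11 and 0.11, that of the 10 genes is 0.05, and HSPE1 at 0.29 is the highest of the 10.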

How the data were processed

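RNA counts of 3 KD and 3 NC libraries were analysed. The deposited values are raw read counts for each Ensembl gene ID, made by the authors with FastQC 0.11.8, STAR 2.7.10a and HTSeq 0.11.1 on hg38, per the submitters' processing notes, which also name DESeq2. The annotation release, strand setting and multi-mapping setting of the counting are not stated in these sources. The 5 summary lines that name no gene stayed out of library sizes and tests, which left 33.5% to 60.2% of the records. Symbols came from a name table that held 62639 of 62703 IDs, and coordinates and exon lengths from GENCODE 29. The counted ID of every member carries a later version than in GENCODE 29. The coordinates, exon lengths and overlaps given here may therefore differ from those used in the counting.

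The main comparison was edgeR 4.0.16 in R 4.3.3 (filterByExpr, TMM, robust quasi-likelihood F test, group as the only term, Benjamini-Hochberg adjusted p under 0.05 over 16929 genes); standard errors and 95% intervals come from that fit. Log2 CPM used a prior count of 2. Deviations from the group means correlated at 0.89, 0.62 and 0.61 between KD and NC libraries numbered 1, 2 and 3. These lay above the limit of 0.1, so the numbers were treated as pairs, though the labels state no pairing. KD replicate 2 with NC replicate 3 gave 0.59, and KD replicate 3 with NC replicate 2 gave 0.55. The check therefore sets number 1 apart but hardly separates numbers 2 and 3, so it cannot show that those are pairs. Alternatives were the block, DESeq2 1.42.0, limma-voom (limma 3.58.1), other scaling factors, no filter, and leaving out libraries. The scripts were tested on simulated data. Libraries of a group differed by more than counting noise, with chi-square over its degrees of freedom at 20.2 to 82.0. All 10 members were named, with up to 2 genes per related list and fit by smallest p. Members and lists were chosen with earlier results of these data known. The series' design text calls the replicates independent and does not say whether they are separate cultures, so p-values measure the spread between these libraries. Counts of 262 to 65414 per member set the precision.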

Additional observations from a re-analysis of the deposited data

How the results depend on the processing

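Results are log2 fold changes or counts of calls, and the cause of each change was not tested. The group comparison called 0 genes, and 1 with DESeq2. With the replicate block, 29 genes were called, 28 with the block in DESeq2, 19 in limma-voom and 29 with RLE factors; these last 3 were chosen after seeing the data. Leaving pairs out of the block gave 5 to 119 calls (5, 119 and 73 without pairs 1, 2 and 3). The members gave 0 calls under every alternative except the block without pair 3, where HSPE1 made 1. HSPE1 kept its sign throughout, with 0.17 to 0.39 when single libraries were left out, and its adjusted p in the block was 0.0990 with DESeq2, 0.194 with limma-voom and 0.0787 with RLE factors. Without the expression filter DNAJB1 was at -0.0069.

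Leaving out 1 library or pair turned other signs. The lowest and highest values were -0.071 and 0.13 for HSPD1, -0.061 and 0.15 for HSPA9, -0.10 and 0.25 for HSPA8, -0.13 and 0.36 for HSPA1B, -0.17 and 0.12 for HSPH1, -0.083 and 0.19 for HSP90AB1, -0.030 and 0.20 for DNAJA1, and -0.11 and 0.14 for DNAJB1. Among related genes they were -0.022 and 0.11 for CCT4, -0.054 and 1.31 for HSPA1L, -0.46 and 0.18 for HSPA2, -0.019 and 0.12 for CACYBP, -0.38 and 0.039 for HSPBP1, -0.45 and 0.027 for FKBP4, -0.12 and 0.051 for SERPINH1, -0.16 and 0.0073 for HSF2, -0.0020 and 0.19 for DNAJB11, -0.025 and 0.13 for HSPA5, -0.28 and 0.28 for SNORD14E, and -0.84 and 0.36 for HSPA8P8. Unpaired fits without 1 library also moved the median of all genes, to between -0.11 and 0.11, so those values hold that shift. In the block, leaving out pair 1 gave -0.075 for HSPA1B, -0.078 for DNAJB1 and -0.13 for SNORD14E, and leaving out pair 3 gave 0.0020 for HSF2 and 0.066 for HSPA8P8. Among the members HSPA1B had the fewest counts, 262 to 413 per library, and HSPA1L, HSPA8P8 and SNORD14E had fewer still.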
